A study of Mus musculus with 30 samples.

Results

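The genes described here encode the chains of collagens, laminins and integrins, together with fibronectin (Fn1) and the link protein Hapln1. They were taken by name from the protein-coding genes: symbols made of Col, a number, a and a number; Lama, Lamb or Lamc with a number; Itga or Itgb with a number and, where present, a letter after it; and Fn1 and Hapln1. That gave 78 of the 55487 genes counted, made up of 19 basement membrane genes (laminin chains, collagen IV chains, Col15a1 and Col18a1), 11 fibrillar collagens, 25 other collagens, 12 integrin alpha chains, 9 integrin beta chains, and the pair Fn1 and Hapln1. Integrins named by a letter alone, such as Itgav, fell outside the naming rule and are given as neighbours of the pathway.

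A basement membrane is a thin sheet on which epithelial, endothelial and muscle cells sit. Laminins polymerise on the cell surface as trimers of an alpha, a beta and a gamma chain, and collagen IV forms a covalent network beside them, whereas fibrillar collagens are cleaved outside the cell and assemble into the fibres of connective tissue. Integrins are alpha and beta pairs that bind laminin, collagen or fibronectin outside the cell and the cytoskeleton inside it, and fibronectin is the matrix on which the mesoderm of the early embryo migrates.

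RNA was sequenced in 18 mouse libraries that form 6 groups of 3, all of them labelled embryonic stem cells. The first experiment compared the iETV2 line given doxycycline (DOX), which is used to switch on Etv2, a transcription factor without which the embryo makes neither vessels nor blood, with the same line without DOX. The second compared the line iETV2-KDM4A (H188A) with DOX and without DOX; KDM4A is a demethylase of lysine 9 of histone H3, H188A is the variant the label gives, and the line is called H188A below. The third compared cells whose genotype is given as KDM4A/4C DKO (both demethylase genes knocked out) with control cells, and the fourth mapped the repressive mark H3K9me3 in 3 DOX-treated and 3 untreated samples. The labels give no parent line or DOX status for the third experiment, no days of culture for RNA, and do not say whether replicates came from separate cultures or clones, so p-values measure only the spread between these samples.

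Library totals lay between 40334911 and 68970038 counts. Etv2 had means of 18.6 ± 0.893 CPM (a gene's counts scaled to the library total) in iETV2 cells with DOX, against 2.93 ± 0.176 without DOX, and 15.2 ± 3.54 in H188A cells with DOX, against 0.376 ± 0.27 without DOX (SD, n = 3). Kdm4a averaged 43.9 ± 2.62 CPM in the libraries labelled DKO and 54.6 ± 0.941 CPM in control cells; Kdm4c averaged 45.5 ± 2.64 CPM in the libraries labelled DKO and 30.7 ± 1.32 CPM in control cells. Counts over a whole gene do not show whether a part of it is deleted, so these levels do not check the knockout, nor can they show the H188A substitution. Summed stem cell markers (6 genes) were 1006 to 1058 CPM in the libraries labelled DKO and 39 to 43.2 CPM in their control cells, which held 1251 to 1314 CPM of 8 blood markers. This goes against the label of embryonic stem cells for the control cells of that experiment. Markers of other cells were found in other groups too. Mesoderm markers (6 genes) summed to 932 to 1247 CPM in iETV2 libraries and 584 to 596 CPM in the libraries labelled DKO. Parietal and primitive endoderm markers (10 genes) summed to 930 to 1661 CPM in H188A libraries. H188A and iETV2 libraries belong to different experiments, and line and experiment cannot be told apart. In bulk RNA, fewer cells of a type and less RNA per cell cannot be told apart.

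Promoter windows of 4 members are shown. Col4a1 and Col4a2 share a bidirectional promoter, and Hapln1 was the member with the largest change with DOX. Itga1, the alpha chain of a collagen receptor, passed the test with DOX in both lines. The part of these sequences in the RNA changes was not tested. The windows run 300 bases along the direction of each gene and come from RefSeq on build GRCm38.p6. Capitals mark CCGGAA or CAGGAA, the core letters bound by ETS factors such as ETV2, read on either strand. The windows lie at chr8:11312777-11313076 (minus strand), chr8:11312555-11312854 (plus strand), chr13:89540386-89540685 (plus strand) and chr13:115101915-115102214 (minus strand).
Col4a1: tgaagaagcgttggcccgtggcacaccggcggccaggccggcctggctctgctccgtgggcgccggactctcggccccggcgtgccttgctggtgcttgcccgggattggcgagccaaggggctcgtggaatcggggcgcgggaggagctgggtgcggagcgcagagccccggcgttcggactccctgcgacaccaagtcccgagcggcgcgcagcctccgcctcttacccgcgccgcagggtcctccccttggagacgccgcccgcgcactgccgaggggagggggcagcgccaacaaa
Col4a2: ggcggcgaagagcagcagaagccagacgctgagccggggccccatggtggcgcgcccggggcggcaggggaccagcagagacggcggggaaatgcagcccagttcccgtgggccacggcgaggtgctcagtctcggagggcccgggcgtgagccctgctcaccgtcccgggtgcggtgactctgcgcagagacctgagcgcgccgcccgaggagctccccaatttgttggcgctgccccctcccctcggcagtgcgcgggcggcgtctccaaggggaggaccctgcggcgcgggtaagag
Hapln1: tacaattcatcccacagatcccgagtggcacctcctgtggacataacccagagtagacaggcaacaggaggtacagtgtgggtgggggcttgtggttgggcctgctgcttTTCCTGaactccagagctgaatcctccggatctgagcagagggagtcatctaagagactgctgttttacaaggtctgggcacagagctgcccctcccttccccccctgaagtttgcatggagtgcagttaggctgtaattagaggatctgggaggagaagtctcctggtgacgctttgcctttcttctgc
Itga1: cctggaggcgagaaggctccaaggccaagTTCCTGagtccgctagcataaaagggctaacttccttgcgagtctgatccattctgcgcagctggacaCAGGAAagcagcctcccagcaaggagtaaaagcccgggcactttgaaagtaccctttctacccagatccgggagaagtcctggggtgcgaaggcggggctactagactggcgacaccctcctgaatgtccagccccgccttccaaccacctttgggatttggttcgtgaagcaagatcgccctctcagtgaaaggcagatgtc

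The Col4a1 and Col4a2 windows run in opposite directions and overlap by 78 bases, at chr8:11312777-11312854, and neither holds the searched letters. Hapln1 held 1 match and Itga1 held 2. Windows were given for 57 of the 78 members, 63 windows in all, and 19 of these 63 (30.2%) held CCGGAA or CAGGAA on either strand, against 41.4% of all 32851 promoter windows of the same length. CCGGAA alone was found in 3.17% of the members' windows and 14.9% of all windows. GGGCGG, the core of a GC box, was found in 52.4% of the members' windows and 35.7% of all windows, and CCAAT in 25.4% and 37.4%. GGGCGG and CCAAT were also read on both strands; CCGGAA and CAGGAA share the letters GGAA, so a window can hold either or both. A match describes the sequence and is not evidence of binding, and no match says only that these letters are not in this window.

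In iETV2 cells, DOX went with higher RNA of fibronectin, Hapln1, the collagen IV chains Col4a1, Col4a2 and Col4a6, 6 integrin alpha chains and most fibrillar collagens. Of the 74 members tested, 33 rose and 10 fell, that is 43 that passed the test (adjusted p under 0.05). Over all 22025 genes tested the shares were 27% in either direction, 13.7% higher and 13.3% lower. The median log2 change of the members was 0.31, against 0.0024 over all genes. With libraries paired by replicate number, 53 members passed, 37 higher and 16 lower, including all 43. The pairing raised the calls over all 22025 genes too, to 8380 from 5939. The remaining 4 members, Col10a1, Col28a1, Col8a1 and Itgb6, were too low to be tested.

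Fibronectin and Hapln1 both rose. Fn1 had 4844, 5166 and 4419 CPM in iETV2 cells with DOX, against 1058, 1109 and 1055 CPM without DOX. The 3 libraries with DOX lay far above the 3 without, with a log2 change of 2.18 ± 0.08 (SE) and adjusted p = 1.27e-11. Hapln1, which fastens proteoglycans to hyaluronan, had 21.9, 23.5 and 21.7 CPM with DOX, against 0.412, 0.152 and 0.235 CPM without DOX, where it was nearly absent. Its log2 change of 6.40 ± 0.18 (adjusted p = 4.94e-13) was the largest of all members tested in this comparison.

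Among the basement membrane genes, 8 rose, 2 fell and 9 did not pass the test; with libraries paired by replicate number, Lamc1, Lamb2 and Col4a5 passed as well. Lama1, the alpha chain of the first laminin of the embryo, had 87, 82.6 and 82.5 CPM with DOX, against 46.6, 46.2 and 45.2 CPM without DOX (log2 change 0.88 ± 0.07, adjusted p = 5.5e-08). Its partner Lamb1 had 249, 253 and 234 CPM with DOX, against 197, 201 and 193 CPM without DOX, a smaller change of 0.33 ± 0.07 (adjusted p = 0.00199). For the shared gamma chain Lamc1 the values were 264, 272 and 251 CPM with DOX, against 287, 309 and 280 CPM without DOX, which did not pass (log2 change -0.14 ± 0.08, adjusted p = 0.213). All DOX values of Lama1 and Lamb1 lay above those without DOX and all of Lamc1 below; these chains join in 1 laminin trimer.

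Col4a1 had 150, 151 and 145 CPM with DOX, against 102, 94.8 and 94.8 CPM without DOX, and Col4a2 had 73.8, 70.2 and 71.7 CPM, against 37.3, 38.2 and 35.5 CPM. Both rose, by 0.62 ± 0.07 (adjusted p = 3.23e-06) and 0.97 ± 0.07 (adjusted p = 2.91e-08) on the log2 scale, and in neither did the groups overlap. With the 12 libraries of both lines, Col4a1, Lamb1, Col4a6 and Lama2 did not pass. Lama4, the alpha chain found in the walls of blood vessels, had 18.8, 19.4 and 20 CPM with DOX, against 5.67, 6.17 and 6.69 CPM without DOX (log2 change 1.67 ± 0.09, adjusted p = 6.45e-10). Col18a1, a proteoglycan of vessel basement membranes, had 134, 131 and 126 CPM with DOX, against 90, 84.1 and 88.7 CPM without DOX (log2 change 0.59 ± 0.07). Lama5, the widespread alpha chain of later basement membranes, moved the other way: it fell to 338, 356 and 303 CPM with DOX, against 547, 583 and 539 CPM without DOX (log2 change -0.73 ± 0.08, adjusted p = 3.76e-06). Lama3 and Col4a6 also rose, and Lama2, a laminin chain of muscle, fell by 1.04 on the log2 scale.

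**Figure D1:**
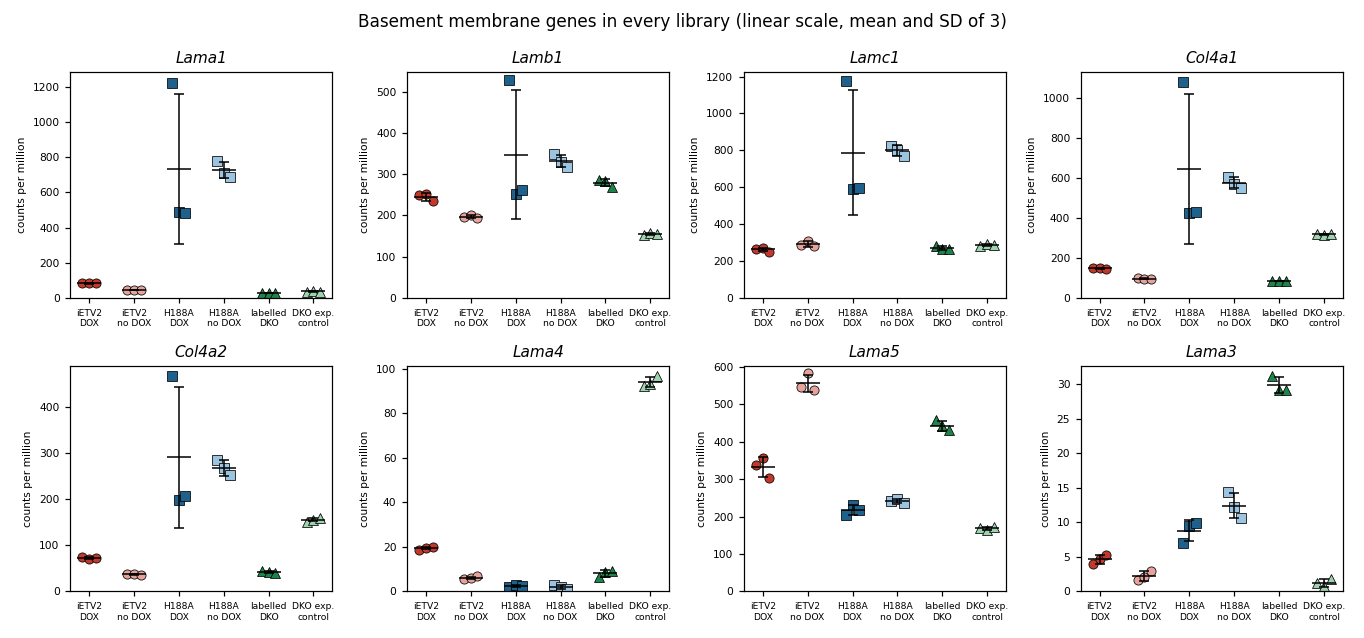
CPM of 8 basement membrane genes in each library of the 6 RNA groups; points are libraries and bars the mean and SD of 3. Lama1, Col4a1 and Col4a2 were higher in iETV2 cells with DOX than without, and 1 H188A library with DOX lay far above the other 2 in Lama1, Lamb1, Lamc1, Col4a1 and Col4a2.

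Of the 11 fibrillar collagens, 7 rose, 1 fell and 3 did not pass. Col5a2, a collagen V chain that helps to start fibrils, had 31.2, 28.2 and 30.1 CPM with DOX, against 7.87, 7.51 and 9.04 CPM without DOX (log2 change 1.89 ± 0.08, adjusted p = 8.12e-11). Col27a1 had 21.7, 26.1 and 25.8 CPM with DOX, against 9.07, 8.51 and 11.5 CPM without DOX (1.37 ± 0.10, adjusted p = 2.55e-08). Both genes had every DOX library above every library without DOX. Col1a2, a chain of collagen I, had 11.6, 10.9 and 10.5 CPM with DOX, against 5.43, 5.28 and 6.69 CPM without DOX (log2 change 0.95 ± 0.11). Its partner Col1a1 had 14.3, 10.1 and 10.2 CPM, against 5.91, 1.77 and 9.06 CPM, groups that did not overlap but were widely spread, and its call (adjusted p = 0.021) was lost with DESeq2, with the 12 libraries of both lines, and without any of 3 single libraries (replicates 1 and 2 with DOX and replicate 1 without DOX; adjusted p of 0.0509 to 0.208 over these). Col2a1, the collagen of cartilage and notochord, fell to 9.96, 9.01 and 9.64 CPM with DOX, against 37.2, 38.9 and 38.6 CPM without DOX (-1.99 ± 0.08, adjusted p = 1.63e-11). Col24a1 and Col11a1 rose by 1.73 ± 0.19 and 0.69 ± 0.13. Col5a1 rose by 0.30 ± 0.07, with 30.3, 29.2 and 28.8 CPM, against 24, 23.7 and 24.7 CPM, a call lost without DOX replicate 1, and Col3a1 (collagen III) stayed at or below 1.27 CPM in every iETV2 library.

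Among the 25 other collagens, 7 rose and 4 fell. Col14a1, which coats collagen fibrils, had 13.5, 12.3 and 14.6 CPM with DOX, against 1.79, 1.59 and 1.46 CPM without DOX (log2 change 3.06 ± 0.13, adjusted p = 4.91e-11). Col23a1, a transmembrane collagen, changed little, with 15.3, 17.9 and 16.9 CPM, against 13.8, 12.3 and 14.4 CPM (log2 change 0.33 ± 0.09, adjusted p = 0.00914). Another transmembrane collagen, Col25a1, rose by 2.59 ± 0.19. Col9a1, a chain of cartilage collagen IX, rose by 1.37 ± 0.23, and its neighbour Col19a1 by 0.96 ± 0.16. The collagen VI chains Col6a1 and Col6a2, which form beaded microfibrils, fell by 1.20 and 0.58. Of these, Col6a2 was lost without DOX replicate 1 or without replicate 1 or 3 of the cells without DOX, Col23a1 without DOX replicate 2, and Col9a1, Col19a1 and Col23a1 with the 12 libraries of both lines.

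Of 12 integrin alpha chains tested, 6 rose and 2 fell, and of 8 beta chains tested, 3 rose and 1 fell. Itgb3, the beta chain of platelet and vitronectin receptors, had 10.4, 10.6 and 10.2 CPM with DOX, against 1.03, 0.5 and 1.24 CPM without DOX (log2 change 3.55 ± 0.21, adjusted p = 1.99e-09). Its partner Itga2b, an early marker of blood progenitors, had 15.3, 15 and 17.1 CPM, against 3.56, 4.25 and 4.93 CPM (1.92 ± 0.11, adjusted p = 2.04e-09). For Itga4, a receptor for fibronectin and VCAM1, the values were 12.4, 15.5 and 12.3 CPM with DOX, against 3.16, 3.65 and 4.58 CPM without DOX (1.85 ± 0.13, adjusted p = 2.62e-08). In all of these the groups were apart.

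Itga1 had 36.3, 39.7 and 38.8 CPM with DOX, against 13.6, 15 and 14.8 CPM without DOX (log2 change 1.42 ± 0.07, adjusted p = 5.77e-10), and its neighbour Itga2, another collagen receptor chain, rose by 3.08 ± 0.36 from low levels. Itga9 had 23.8, 25.4 and 23.6 CPM, against 9.19, 10.1 and 12.9 CPM (1.20 ± 0.10), and Itga5, the main fibronectin receptor chain, had 84.9, 93 and 88.2 CPM, against 57.9, 58.5 and 58.1 CPM (0.62 ± 0.07, adjusted p = 2.08e-06). Each of these rose without overlap. Itgb8, whose receptor releases active TGF-beta, had 26.5, 29.9 and 23 CPM with DOX, against 13.4, 15.6 and 12.1 CPM without DOX (0.96 ± 0.12, adjusted p = 1.01e-05). Itgb2, the beta chain of white blood cell integrins, rose by 1.96 ± 0.34.

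Itga6 and Itga3, alpha chains of laminin receptors, went the other way, while the laminin receptor chains Itga7 and Itgb4 did not pass (-0.25 ± 0.37 and -0.19 ± 0.22). Itga6 fell to 101, 99 and 88.2 CPM with DOX, against 121, 131 and 123 CPM without DOX (log2 change -0.36 ± 0.08, adjusted p = 0.00212). Itga3 fell to 38, 36.7 and 36.6 CPM with DOX, against 53.9, 48.7 and 52.1 CPM without DOX (-0.46 ± 0.07, adjusted p = 7.48e-05). Itgb5 was also lower, with 78.4, 71.7 and 75.8 CPM, against 98.7, 88.4 and 88.9 CPM (-0.28 ± 0.07, adjusted p = 0.00974), a call lost without replicate 1 of the cells without DOX (adjusted p = 0.111) and with no filter on low counts (adjusted p = 0.148). The common beta chain Itgb1 had 290, 279 and 284 CPM with DOX, against 254, 260 and 256 CPM without DOX, all DOX libraries above the others, but did not pass (log2 change 0.16 ± 0.07, adjusted p = 0.0845). It passed, as did Lamc1, in the fit that pairs libraries by replicate number.

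Neighbouring pathways were taken as lists of genes. Of 13 basement membrane partners, 3 rose and 6 fell: Nid1, the linker of laminin and collagen IV, rose by 1.35 ± 0.07, while Smoc1, Frem1 and Smoc2 had changes of -1.71 ± 0.09, -1.36 ± 0.08 and -1.49 ± 0.12. Of 24 genes for making and crosslinking collagen, 7 rose and 4 fell, including Adamts3, a collagen-trimming protease, at 1.92 ± 0.11 and Loxl2, a crosslinking enzyme, at -1.65 ± 0.08. Of 16 integrin adhesion genes, 6 rose and 2 fell, led by Fermt3, the kindlin of blood cells, at 2.33 ± 0.16. Matrix-breakdown genes (11) gave 3 higher and 3 lower, with Mmp9 at 3.25 ± 0.25, and of 19 other matrix genes tested 9 were higher and 3 lower, with Fbln2 at 1.98 ± 0.08 and Has2, which makes hyaluronan, at 1.29 ± 0.07. Over the same libraries, summed markers of other cells also moved: 10 endothelial markers summed to 458 to 469 CPM with DOX, against 25.1 to 29.1 CPM without DOX, all 10 passing higher; 8 blood markers summed to 288 to 310 CPM, against 8.43 to 12.3 CPM, all 8 higher; 6 mesoderm markers summed to 1204 to 1247 CPM, against 932 to 987 CPM. Parietal and primitive endoderm markers summed to 302 to 315 CPM, against 239 to 252 CPM (5 of 10 higher, 5 lower), visceral endoderm markers to 41.8 to 48.4 CPM, against 112 to 120 CPM (2 of 7 tested higher, 2 lower), neural markers to 52.9 to 59.5 CPM, against 99 to 109 CPM (3 of 5 tested lower), and fibroblast markers to 53.2 to 54.9 CPM, against 40.6 to 44.8 CPM (2 of 6 tested higher, 2 lower). Their part in the members' changes was not tested.

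**Figure D2:**
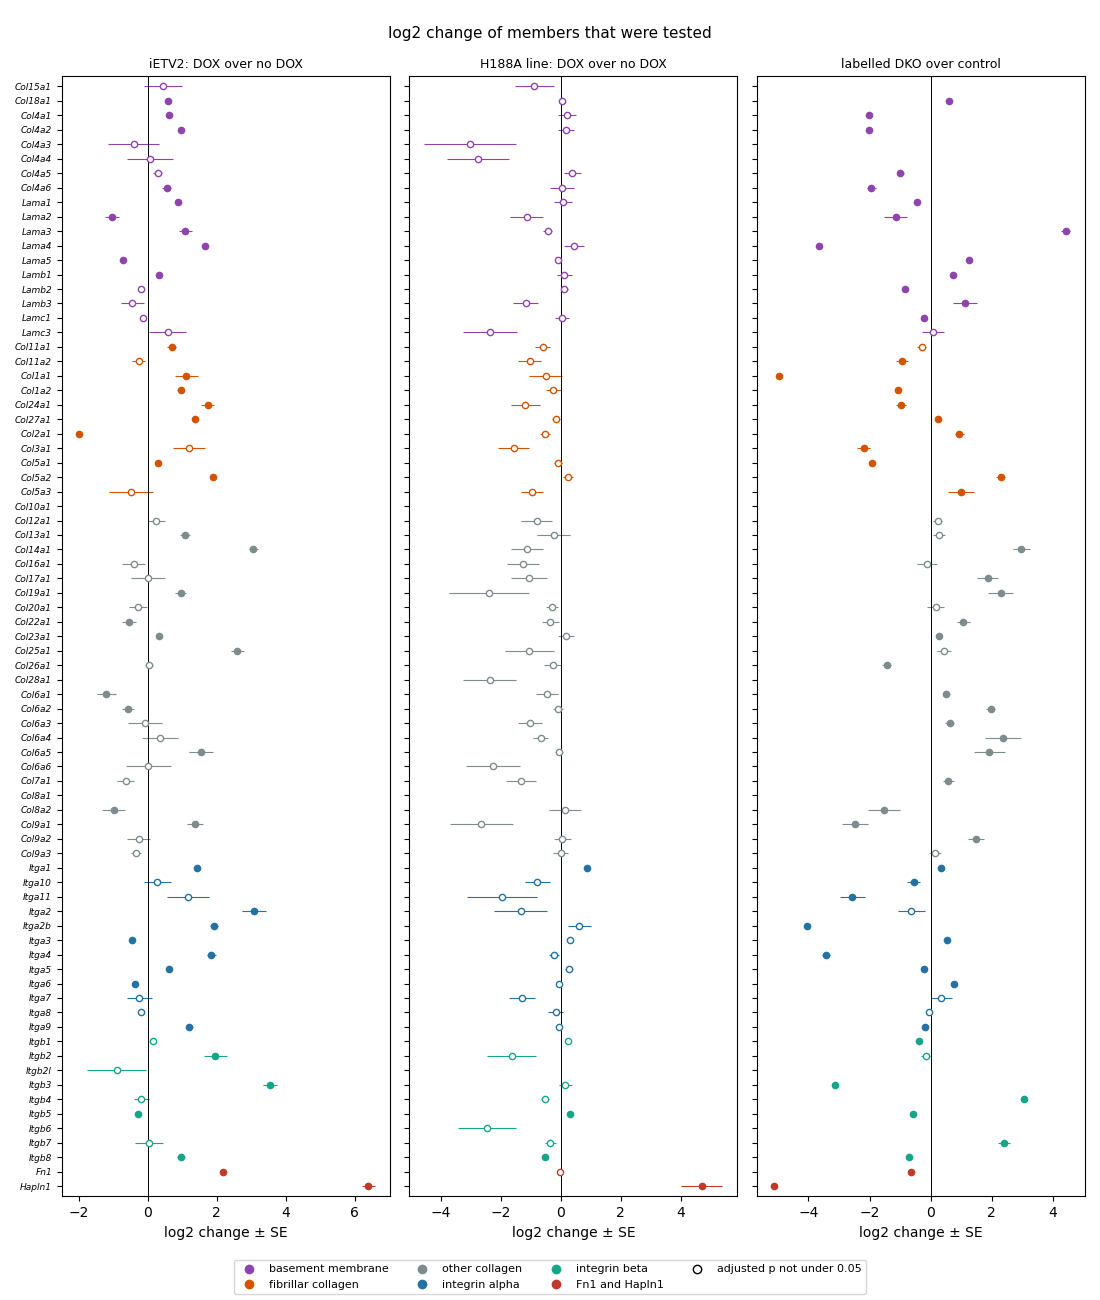
log2 change of the tested members, 1 of them left out, each with its SE, for DOX over no DOX in iETV2 cells (left), DOX over no DOX in H188A cells (middle) and labelled DKO over control cells (right). Filled points passed an adjusted p of 0.05; colours give the class. Many members passed in the outer panels and 4 in the middle one.

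In H188A cells, 3 members rose and 1 fell with DOX of 75 tested, while 3.02% of all 21086 genes tested passed, 2.22% higher and 0.801% lower. The count depended on single libraries: it was 20 without replicate 3 of the cells without DOX, 11 without DOX replicate 1, 11 with DESeq2, and 1 or 2 without any other 1 library. Calls over all genes moved as well, in the same order 1839 of 23417, 791 of 24687, 1443 of 21086, and 81 to 203. Hapln1 had 6.01, 3.77 and 3.09 CPM with DOX, against 0.496, 0.087 and 0.0145 CPM without DOX, where 20, 5 and 1 reads were counted. Its log2 change was 4.69 ± 0.70 (adjusted p = 0.0123); the groups did not overlap. Itga1 had 13.1, 16.2 and 15.4 CPM with DOX, against 9.74, 7.57 and 7.97 CPM without DOX (log2 change 0.87 ± 0.12, adjusted p = 0.00636), and passed, higher, in every alternative tried. Itgb5, part of a vitronectin receptor, had 48.6, 51.7 and 49.7 CPM, against 41.2, 41.9 and 42.7 CPM (0.30 ± 0.06, adjusted p = 0.0259), and Itgb8 fell to 9.6, 8.21 and 8.29 CPM with DOX, against 13.4, 12.9 and 12.8 CPM without DOX (-0.54 ± 0.09, adjusted p = 0.0218). Endothelial markers rose too, to 254 to 269 CPM with DOX, against 137 to 148 CPM without DOX for the sum of 10, of which 7 passed, and their part in these changes was not tested. Among the neighbouring lists 1 of 13 basement membrane partners rose (Frem2, 0.51 ± 0.06), 1 of 24 collagen-making genes (Ppib, 0.33 ± 0.05), 1 of 16 integrin adhesion genes (Pxn, 0.29 ± 0.06) and 1 of 11 matrix-breakdown genes (Mmp2, 0.46 ± 0.10). Of 18 other matrix genes tested, 3 rose and 1 fell. The calls of Itgb5 and Itgb8 were lost without any 1 of 4 libraries: DOX replicates 2 and 3 and replicates 1 and 2 without DOX (adjusted p of 0.066 to 0.221). Both were also lost with summed receptor RNA, described below, as a term in the fit (adjusted p = 0.165 and 0.127). Itgb5 was lost with libraries paired by replicate number as well (adjusted p = 0.063). The Hapln1 call was lost without DOX replicate 3 or without replicate 2 of the cells without DOX (adjusted p = 0.0562 and 0.064).

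The fibronectin and fibrillar genes that rose in iETV2 cells did not pass here. Fn1 had 843, 948 and 905 CPM with DOX, against 919, 960 and 978 CPM without DOX (log2 change -0.04 ± 0.06, adjusted p = 0.73). Laminin and collagen IV genes were high in both H188A groups, but replicate 1 with DOX stood apart from its partners. Lama1 had 1225, 488 and 486 CPM with DOX, against 778, 709 and 690 CPM without DOX, so that 1 library with DOX lay above and 2 lay below every library without DOX. Col4a1 followed the same order, with 1082, 428 and 432 CPM, against 607, 573 and 553 CPM. Lamc1, Lamb1 and Col4a2 did too: Lamc1 had 1178, 588 and 593 CPM, against 826, 804 and 768 CPM.

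The log2 changes of these 5 genes with DOX were 0.03 to 0.22 with all 6 libraries, and without that library they were -0.51 (Lama1), -0.38 (Lamc1), -0.36 (Col4a1), -0.34 (Col4a2) and -0.31 (Lamb1), each with adjusted p under 0.05 (0.00538 to 0.0387) and the opposite sign. The markers of endoderm moved with it. The 10 markers of parietal and primitive endoderm summed to 1661 CPM in that library, against 942 and 930 CPM in the other 2 with DOX and 1153 to 1165 CPM without DOX, and 8 visceral endoderm markers to 736 CPM, against 365 and 373 CPM with DOX and 471 to 487 CPM without. These endoderm genes (Dab2, Gata4, Gata6, Lrp2, Cubn and others) were all counted above 0 in every H188A library; their part in the laminin levels was not tested.

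The difference of the DOX responses between the lines was tested in the 12 libraries of both: a negative value means a lower log2 change with DOX in H188A cells than in iETV2 cells. It passed for 26 of 78 members (22 lower and 4 higher), with 14.4% of all 25516 genes passing, 8.22% higher and 6.2% lower, and the members' median was -1.03, against -0.13 over all genes. Among the fibrillar collagens 7 passed (6 lower and 1 higher), among the integrins 10 (8 lower and 2 higher), and among the basement membrane genes 4 (3 lower and 1 higher). Fn1 had a difference of -2.21 ± 0.12 (adjusted p = 1.06e-08), Itga4 -2.07 ± 0.22, Itgb3 -3.38 ± 0.34, Col5a2 -1.66 ± 0.19 and Col14a1 -4.15 ± 0.55. Itga9, with 18.6, 20.2 and 20 CPM with DOX, against 23.4, 20.4 and 19.7 CPM without DOX in H188A cells, had -1.26 ± 0.13 (adjusted p = 8.94e-06). Higher differences were found for Lama5 (0.63 ± 0.12), Col2a1 (1.47 ± 0.18), Itga3 (0.77 ± 0.11) and Itgb5 (0.58 ± 0.10), which had fallen with DOX in iETV2 cells. For Hapln1, whose changes were 4.69 ± 0.70 and 6.40 ± 0.18 in H188A and iETV2 cells, the difference did not pass (-1.63 ± 0.82, adjusted p = 0.219). Without replicate 1 with DOX of H188A, Lama1, Col4a1 and Col4a2 differences became -1.42, -1.01 and -1.33, each passing.

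**Figure D3:**
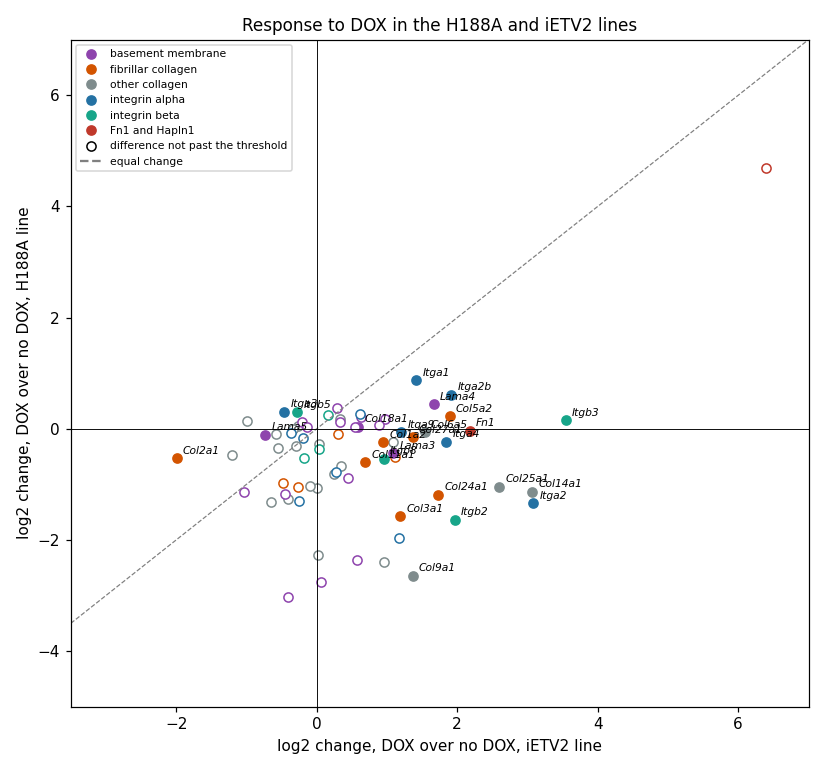
log2 change with DOX in the H188A line (y) against that in the iETV2 line (x) for members tested in both, 1 of them left out; filled and named points passed the test of the difference between the lines, colours give the class and the dashed line marks equal change. Fn1 and Itga4 lie near 0 on the y axis and near 2 on the x axis, whereas Hapln1 is high in both.

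The lines already differed without DOX, where 35 of 78 members passed: 18 higher and 17 lower in H188A cells. Over all 25516 genes 38.3% passed, 19.7% higher and 18.6% lower. Of the 18 higher ones, 8 were basement membrane genes. Lama1 had 778, 709 and 690 CPM in H188A cells without DOX, against 46.6, 46.2 and 45.2 CPM in iETV2 cells without DOX (log2 difference 4.03 ± 0.28, adjusted p = 1.06e-08). Col4a2 had 285, 267 and 251 CPM, against 37.3, 38.2 and 35.5 CPM (2.90 ± 0.25), Col4a1 differed by 2.62 ± 0.27, Lamc1 by 1.50 ± 0.20 and Lamb1, with 348, 330 and 318 CPM, against 197, 201 and 193 CPM, by 0.80 ± 0.20. All H188A libraries lay above all iETV2 libraries in these 5 genes. Col18a1 (1.62 ± 0.07) and Lama3 (2.54 ± 0.18), with 14.3, 12.2 and 10.6 CPM, against 1.63, 2.05 and 3.01 CPM, were also higher. Lama5 (-1.15 ± 0.08), Lama4 (-1.69 ± 0.23), Col4a5 (-1.68 ± 0.22) and Col4a6 (-2.03 ± 0.26) were lower.

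Among the integrins, Itga6, the laminin receptor chain, was higher in H188A cells without DOX (219, 232 and 239 CPM, against 121, 131 and 123 CPM, log2 difference 0.93 ± 0.08). So were Itga9 (1.04 ± 0.10) and Itgb3 (2.28 ± 0.26), with 5.13, 4.02 and 3.64 CPM of Itgb3 in H188A cells, against 1.03, 0.5 and 1.24 CPM in iETV2 cells. Itga8, a nephronectin receptor chain, was lower, with 4.31, 3.43 and 3.2 CPM, against 28.1, 27.4 and 26.6 CPM (-2.87 ± 0.18, adjusted p = 2.69e-09). Fn1 did not pass (919, 960 and 978 CPM, against 1058, 1109 and 1055 CPM). With DOX, 49 members passed between the lines (15 higher, 34 lower in H188A cells), against 37.6% of all genes, 19.9% higher and 17.6% lower. Fn1 then differed by -2.33 ± 0.09, and 8 fibrillar collagens were lower and none higher.

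Endoderm markers separated the lines as well, at 1153 to 1165 CPM in H188A cells without DOX, against 239 to 252 CPM in iETV2 cells without DOX for the 10 parietal and primitive markers, and at 471 to 487 CPM, against 112 to 120 CPM for the 8 visceral markers. Of these 10 and 8 markers, 6 and 5 were higher and 1 and 1 lower in H188A cells without DOX, among them Dab2 (4.04 ± 0.25) and Cubn (7.33 ± 0.30); 6 mesoderm markers summed to 2.13 to 3.35 CPM in H188A cells and 932 to 987 CPM in iETV2 cells. The part of endoderm cells in the laminin and collagen IV levels was not tested.

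**Figure D4:**
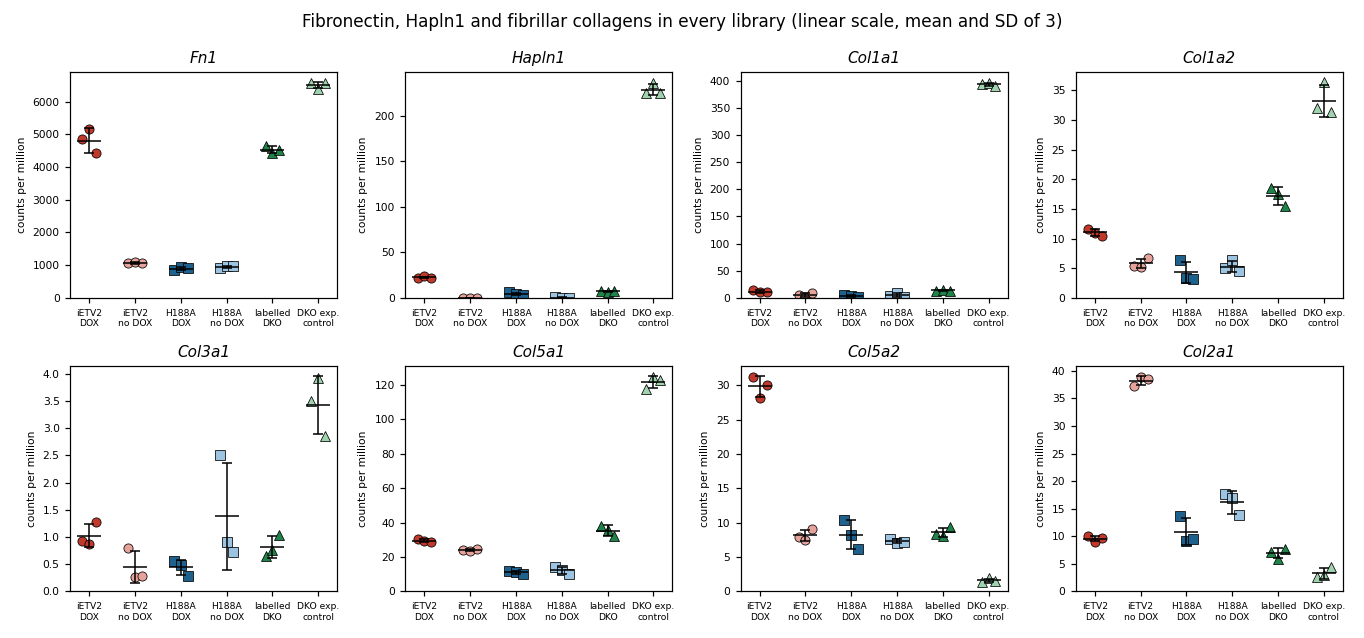
CPM of Fn1, Hapln1 and 6 fibrillar collagens in each library of the 6 RNA groups; points are libraries and bars the mean and SD of 3. Fn1 was higher with DOX in the iETV2 line, and Col1a1 and Hapln1 were far lower in the libraries labelled DKO than in their control cells.

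Between the libraries labelled DKO and their control cells most members moved: 27 rose and 30 fell of 69 tested, 57 in all. Most genes did in this comparison, 69.3% of 20426 tested, 35.6% higher and 33.7% lower, and the members' median log2 change was -0.05, against 0.04 for all genes. By class, of 16 basement membrane genes tested, 9 fell and 6 rose; of 11 fibrillar collagens, 6 fell and 4 rose; of 19 integrins, 10 fell and 5 rose; of 21 other collagens, 12 rose and 3 fell.

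Fibrillar collagens of connective tissue were among the largest changes. Col1a1 had 13.6, 14.7 and 13 CPM in the libraries labelled DKO, against 394, 395 and 390 CPM in control cells (log2 change -4.96 ± 0.05, adjusted p = 2.48e-25). Col1a2 had 18.5, 17.5 and 15.6 CPM, against 31.9, 36.3 and 31.3 CPM (-1.07 ± 0.07), and Col5a1 had 38.2, 35.5 and 31.9 CPM, against 118, 125 and 123 CPM (-1.91 ± 0.05). None of these groups overlapped; the first 2 genes encode the chains of collagen I. Col3a1 fell to 0.647, 0.759 and 1.03 CPM in the libraries labelled DKO, against 3.5, 3.92 and 2.86 CPM in control cells (-2.19 ± 0.23, adjusted p = 1.82e-08). Col5a2 went the other way, with 8.35, 8.03 and 9.37 CPM, against 1.4, 1.9 and 1.52 CPM (2.30 ± 0.14, adjusted p = 4.4e-12), although it lies 24624 bases from Col3a1 on chromosome 1. Col2a1 (0.95 ± 0.16), Col5a3 (1.00 ± 0.42) and Col27a1 (0.23 ± 0.07) also rose; the Col5a3 call was lost with DESeq2 and without any 1 of 5 libraries, all but control replicate 3, and the Col27a1 call without control replicate 1 (adjusted p = 0.0506).

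Fibronectin and Hapln1 both fell. Hapln1 had 7.15, 6.71 and 7.39 CPM in the libraries labelled DKO, against 225, 236 and 225 CPM in control cells (log2 change -5.14 ± 0.05, adjusted p = 4.99e-25). Fn1 had 4640, 4423 and 4534 CPM, against 6574, 6387 and 6562 CPM, a smaller change of -0.65 ± 0.03 (adjusted p = 2.67e-14). Both were lower in every library labelled DKO than in any control library.

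Of the collagen IV chains, the 4 that could be tested (Col4a1, Col4a2, Col4a5 and Col4a6) fell; the laminin chains went in both directions. Lama4 had 6.47, 8.68 and 9.22 CPM in the libraries labelled DKO, against 92.1, 93.1 and 96.6 CPM in control cells (-3.64 ± 0.08, adjusted p = 2.79e-20). Col4a1 had 85.3, 85.1 and 84.7 CPM, against 318, 314 and 323 CPM (-2.03 ± 0.04), and Col4a2 had 44.5, 42.1 and 39.1 CPM, against 152, 155 and 158 CPM (-2.01 ± 0.04). All 3 fell, and none of these groups overlapped. Lama3, the alpha chain of the laminin that anchors skin, rose to 31.1, 29.2 and 29.2 CPM in the libraries labelled DKO, against 1.17, 0.725 and 1.83 CPM in control cells (4.43 ± 0.14, adjusted p = 6.06e-17). Lamb3, the beta chain of that laminin, had a log2 change of 1.13 ± 0.38 (adjusted p = 0.0126), a call that was lost without DKO replicate 1.

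Lama5 rose to 457, 442 and 430 CPM, against 169, 165 and 172 CPM in control cells (1.27 ± 0.04, adjusted p = 4.73e-18). Lamb1 had 287, 283 and 269 CPM in the libraries labelled DKO, against 153, 158 and 156 CPM in control cells (0.72 ± 0.04), and Lamb2 21.9, 24.3 and 23.2 CPM, against 35, 39.7 and 40.1 CPM (-0.85 ± 0.06). The embryonic trimer split: Lamb1 was higher, Lama1 lower at -0.46 ± 0.06, with 28.7, 29.9 and 28.7 CPM, against 35.4, 38.3 and 36.4 CPM, and Lamc1, with 282, 265 and 267 CPM, against 283, 293 and 289 CPM, lower by 0.21. Col18a1 had 321, 309 and 295 CPM, against 189, 183 and 189 CPM (0.60 ± 0.04).

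Of the 12 integrin alpha chains, 6 fell and 3 rose, and of 7 beta chains tested, 4 fell and 2 rose. Among the 6, the calls of Itga9 and Itga10 were lost with no filter on low counts (adjusted p = 0.416 and 0.0825). Both were also lost without DKO replicate 2 or control replicate 3. Itga9 was lost without DKO replicate 3 and with the stricter filter too, and Itga10 without DKO replicate 1. The Itga9 groups overlapped, with 22, 20.6 and 21.6 CPM, against 21.5, 21.3 and 23.5 CPM in control cells. Itga2b had 6.91, 5.49 and 6.06 CPM in the libraries labelled DKO, against 93, 92.1 and 92.8 CPM in control cells (-4.04 ± 0.06, adjusted p = 2.83e-22), and Itga4 had 2.38, 4.62 and 4.08 CPM, against 35.6, 39.5 and 36.2 CPM (-3.42 ± 0.13). Itgb3 had 5.02, 4.23 and 5.14 CPM, against 37.7, 39.3 and 39.3 CPM (-3.14 ± 0.08). Each of these 3 was several-fold lower without overlap. The beta chain of hemidesmosomes, Itgb4, rose to 27.8, 24.4 and 24.8 CPM in the libraries labelled DKO, against 2.37, 2.55 and 3.53 CPM in control cells (3.05 ± 0.11, adjusted p = 2.21e-16), and its partner Itga6 had 153, 158 and 157 CPM, against 84, 86 and 85.1 CPM (0.75 ± 0.04). Itga3 was higher too, with 44.7, 42.1 and 40.4 CPM, against 26.9, 25.1 and 27.8 CPM (0.55 ± 0.06). Itga7, another laminin receptor chain, did not pass (0.35 ± 0.34).

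Itgb7, a beta chain of lymphocytes, rose by 2.41 ± 0.20, and Itgb2 did not pass (-0.16 ± 0.15). Itga5 had 85.9, 88.6 and 84.6 CPM in the libraries labelled DKO, against 92, 92 and 92.7 CPM in control cells (-0.22 ± 0.04), and Itgb1 had 283, 284 and 285 CPM, against 336, 342 and 334 CPM (-0.37 ± 0.04), small decreases that passed. Itgb5 and Itgb8 changed by -0.56 ± 0.05 and -0.72 ± 0.08. Itga8 did not pass, at 10, 10.6 and 10.8 CPM, against 10.1, 9.35 and 10.5 CPM (-0.05 ± 0.08, adjusted p = 0.592). Among the other collagens, Col14a1 had 3.93, 5.81 and 4.72 CPM in the libraries labelled DKO, against 0.251, 0.51 and 0.901 CPM in control cells (2.98 ± 0.28, adjusted p = 3.69e-09), and Col23a1 24.7, 22.8 and 23.9 CPM, against 18.2, 16.8 and 19.2 CPM (0.27 ± 0.07). The collagen VI chains all moved up, Col6a1 by 0.51 ± 0.11, Col6a2 by 1.97 ± 0.16, Col6a3 by 0.62 ± 0.16, Col6a4 by 2.38 ± 0.59 and Col6a5 by 1.93 ± 0.51; Col6a6 was too low to be tested. Col17a1, a collagen of hemidesmosomes like Itgb4, rose by 1.88 ± 0.34, while Col9a1, Col26a1 and Col8a2 fell by 2.47, 1.44 and 1.53; the Col6a4 call was lost with DESeq2 and the Col8a2 call without DKO replicate 1 or 2.

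**Figure D5:**
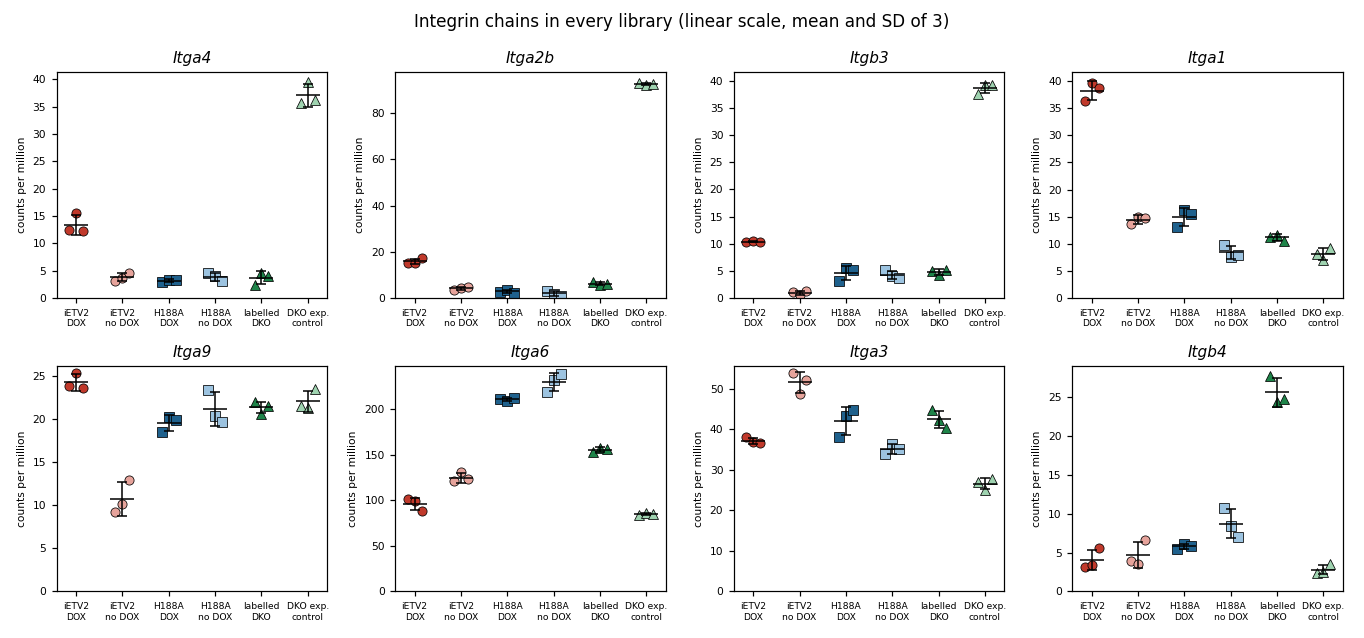
CPM of 8 integrin chains in each library of the 6 RNA groups; points are libraries and bars the mean and SD of 3. Itga4, Itga2b and Itgb3 were higher with DOX in the iETV2 line and lower in the libraries labelled DKO than in control cells, whereas Itgb4 was highest in the libraries labelled DKO.

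Among neighbouring pathways, 20 of 24 genes for making and crosslinking collagen fell in the libraries labelled DKO and 1 rose, with Adamts2, a collagen-trimming protease, at -2.79 ± 0.08 and Loxl2 at -2.07 ± 0.06. Of 16 integrin adhesion genes, 14 fell and 2 rose, led by Fermt3 (-4.19 ± 0.09). Of 11 matrix-breakdown genes, 5 rose and 4 fell, with Mmp15 at -2.36 ± 0.06 and Timp1, an inhibitor of these proteases, at 2.64 ± 0.11. Among the integrins named by a letter, Itgav, the alpha chain of vitronectin receptors, changed by -0.35 ± 0.04 and Itgal, a leukocyte chain, by 3.00 ± 0.38. Basement membrane partners were divided, 6 higher and 7 lower, with Nid2 at 1.41 ± 0.04 and Frem1 at -2.35 ± 0.12. Of 17 other matrix genes tested, 11 fell and 5 rose, with Fbn2, a microfibril protein, at -2.49 ± 0.04, Cd44, a hyaluronan receptor, at -2.40 ± 0.05 and Vcan at -1.54 ± 0.04. Cell markers moved with these genes: 8 blood markers summed to 24.9 to 25.2 CPM in the libraries labelled DKO, against 1251 to 1314 CPM in control cells, 10 endothelial markers to 151 to 156 CPM, against 620 to 628 CPM, and 10 fibroblast markers to 27.2 to 29.5 CPM, against 104 to 107 CPM. All 8 blood markers and all 9 endothelial markers tested were lower, whereas of 7 fibroblast markers tested 4 were lower and 3 higher. Their part in the members' changes was not tested.

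The iETV2 and DKO comparisons used different libraries, so their calls can be set side by side. Of the 33 members that rose with DOX in iETV2 cells, 18 were lower and 10 higher in the libraries labelled DKO, against 1494 and 1061 of 3010 such genes over the whole table (49.6% lower, 35.2% higher). Of the 10 members that fell with DOX, 7 were higher and 3 lower in those libraries, against 1407 and 785 of 2929 (48% and 26.8%).

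Members that lie within 100 kb of each other form 11 pairs. Col4a1 and Col4a2, whose annotated spans overlap at their starts, gave the same call in all 6 comparisons. Whether strand was used in counting is not stated, so reads near their shared start could be counted for either gene. Col4a5 and Col4a6, which lie 1274 bases apart on the X chromosome, were both lower in the libraries labelled DKO and both lower in H188A cells, while only Col4a6 passed with DOX in iETV2 cells. Col9a1 and Col19a1, 4944 bases apart, both rose with DOX in iETV2 cells but moved in opposite directions in DKO. Col3a1 and Col5a2 also moved in opposite directions in DKO, and of these only Col5a2 passed with DOX in iETV2 cells.

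Low-level members were mostly highest in the library of a group with the most receptor RNA, except in the libraries labelled DKO. Summed counts of 1988 odorant, vomeronasal and trace amine receptor genes, which are silent in most cells, were 625, 205 and 53.4 CPM in H188A cells without DOX, against 20.6 to 189 CPM in all other libraries. The 12 members with a mean below 2 CPM in every group summed to 19.8, 7.22 and 1.51 CPM in those 3 H188A libraries, and all 12 were highest in replicate 1. The part of receptor RNA in the members' differences was examined only by adding the receptor sum to the fit. With that term 22 differences of DOX responses passed (20 of the 26 and 2 others). Among all 25516 genes 3895 then passed, against 3679 without the term. Between lines without DOX 46 differences passed, against 35 without the term. Among all 25516 genes 11753 then passed, against 9763 without the term. For DOX in H188A cells 3 members passed with the term, Hapln1, Itga1 and Itga2b, while Itgb5 and Itgb8 were lost. Among the 21086 genes of that comparison 121 then passed, against 637 without the term. The comparisons of DOX in iETV2 cells and of DKO against control were not fitted with the receptor sum.

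H3K9me3 regions overlapped 26 to 31 of the 78 members in a sample. Of the 78 gene bodies, 31, 29 and 31 were overlapped by at least 1 base of a region in samples with DOX, against 28, 26 and 29 in samples without DOX (means 30.3 ± 1.15 and 27.7 ± 1.53, SD, n = 3 each). The exact permutation test gave p = 0.2, two-sided, where 3 against 3 cannot go below 0.1. The 3 samples with DOX carry the labels EB-DOX-D2, EB-DOX-D3 and EB-Er71-Flag-DOX-D2, so they were not alike. Over all 21900 coding genes the shares overlapped were 19.6 to 22.6% with DOX, against 19.8 to 20.7% without DOX. The members have a median length of 77416 bases, against 17146 for all coding genes, and the share of their bases inside regions was 2.09 to 2.65% with DOX and 2.27 to 2.38% without DOX, against 3.38 to 4.4% and 3.88 to 4.39% for all coding genes.

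Across the 6 samples, 43 members were overlapped in none, 22 in all and 13 in some, and no member was overlapped in all samples of 1 group and none of the other. The basement membrane genes held 8 of the 22, among them Lama2, where regions covered 30600, 25400 and 25800 bases with DOX, against 28400, 29000 and 25600 bases without DOX. Col4a4, a collagen IV chain of kidney, had 26200, 25000 and 23000 bases with DOX, against 20400, 23800 and 20400 bases without DOX. Itgb3 had 6600, 8200 and 6800 bases, against 7400, 7200 and 9600 bases. In Lama2, Col4a4 and Itgb3 alike the groups overlapped. Lama5 was free of regions in the samples with DOX and had 0, 3600 and 2600 bases without DOX. Col5a2 had 1800, 1600 and 1200 bases with DOX, against 0, 0 and 1400 bases without DOX. Fn1, Col1a1, Col4a1, Itga4 and Itga2b were in no region of any sample.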

How the data were processed

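RNA was measured in 18 libraries of 6 groups of 3 and H3K9me3 in 6 samples; 6 input samples hold no values used here. The deposited RNA files hold whole-number counts of reads per gene. The submitters' processing notes name the aligners STAR 2.7.10b and Bowtie, the counters featureCounts 2.0.6, HTSeq 2.0.3 and StringTie 2.2.1, and also Picard 3.0.0, DESeq2 1.18.1, DiffBind and ChIPseeker, with builds GRCm38 and mm10. Which counter was used, and whether by strand, is not stated there. The H3K9me3 region lists, called per sample by the authors, carry deposited p-values and FDR values up to 0.05, and a log2 fold change of ChIP over input, scaled by the authors per the file headers. Regions were used by position and FDR; their caller is not stated.

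Counts were tested with the quasi-likelihood test of edgeR 4.0.16 (R 4.3.3, limma 3.58.1) after TMM scaling and the filterByExpr filter, with Benjamini-Hochberg adjustment over all genes tested and a threshold of 0.05. CPM values are counts over the library total. Each of the comparisons with DOX and DKO used its own 6 libraries; differences between lines used the 12 libraries of both. The steps were tested on simulated data. Alternatives were DESeq2 1.42.0, size factors, no and stricter filters (at least 1 CPM in 3 libraries), each library left out, a replicate block and a receptor sum as covariate; leaving out 2 H188A libraries together was chosen after seeing the data. In the iETV2 comparison, deviations of same-numbered libraries from their group means correlated at 0.157, 0.442 and 0.428. Libraries with different numbers were not compared in this way, so whether the replicate numbers pair the libraries is not known.

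Values in every library are given for members that passed at least 1 comparison and reached a group mean of 10 CPM, 34 of the 78, and for the defining members; others are given by counts or by log2 change. Genes outside the members were named by smallest adjusted p within a list. The values of 1 basement membrane member, which is included in the counts, are not reported here. The members and lists were chosen with earlier results of these data known. Python 3.11.15 with scipy 1.17.1, pandas 2.3.3 and numpy 2.4.6 computed overlaps and exact tests, and matplotlib 3.10.9 drew the plots.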

Additional observations from a re-analysis of the deposited data

Results flagged for a closer look

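The log2 change with DOX differed between H188A and iETV2 cells for 26 of 78 members by the test of the difference itself (edgeR quasi-likelihood test, adjusted p under 0.05). The same test passed for 14.4% of all 25516 genes, 8.22% higher and 6.2% lower. Line and experiment cannot be told apart. Values are the change in H188A minus that in iETV2 on the log2 scale. Among basement membrane genes, the members that passed were Col18a1 at -0.55, Lama3 at -1.53, Lama4 at -1.19 and Lama5 at 0.63. Among fibrillar collagens, the members that passed were Col11a1 at -1.28, Col1a2 at -1.19, Col24a1 at -2.91, Col27a1 at -1.51, Col2a1 at 1.47, Col3a1 at -2.74 and Col5a2 at -1.66. Of the pair Fn1 and Hapln1, the member that passed was Fn1 at -2.21. Among integrin alpha chains, the members that passed were Itga1 at -0.54, Itga2 at -4.38, Itga2b at -1.26, Itga3 at 0.77, Itga4 at -2.07 and Itga9 at -1.26. Among integrin beta chains, the members that passed were Itgb2 at -3.55, Itgb3 at -3.38, Itgb5 at 0.58 and Itgb8 at -1.49. Among other collagens, the members that passed were Col14a1 at -4.15, Col25a1 at -3.61, Col6a5 at -1.61 and Col9a1 at -3.99. Without H188A DOX replicate 1, Lama1, Lamb1, Col4a1, Col4a2 and Itga5 passed as well, at -1.42, -0.66, -1.01, -1.33 and -0.54; so did Col1a1, and Itga1 and Itga2b did not. The Itga2b call was lost with the replicate block (adjusted p = 0.0552), after adjusting for summed receptor RNA (adjusted p = 0.284) and without any 1 of 9 of the 12 libraries (adjusted p of 0.0543 to 0.1). Itga1 was lost with no filter on low counts (adjusted p = 0.345) and without iETV2 DOX replicate 2 or replicate 1 of the iETV2 cells without DOX. Col3a1, at 1.27 CPM or less in iETV2 libraries, was not tested under the stricter filter and was lost after adjusting for receptor RNA and without H188A DOX replicate 3, H188A replicate 1 without DOX or iETV2 replicate 2 without DOX. With the receptor sum, Lama4, Col11a1, Itgb2 and Col9a1 were lost too, Lama4 also without H188A replicate 2 without DOX, and Col18a1 with no filter on low counts.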

How the results depend on the processing

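No member call changed direction in any alternative that was run. The count of 4 members called with DOX in H188A cells was 11 with DESeq2, 23 with no filter on low counts, 14 without the 2 H188A libraries that stood apart, and 1 to 20 when single libraries were left out: 11 without DOX replicate 1, 2 without DOX replicate 2, 1 without DOX replicate 3, and 2, 1 and 20 without replicates 1, 2 and 3 of the cells without DOX. The calls over all genes moved too: 637 of 21086 in the main fit, 1443 of 21086 with DESeq2 and 2032 of 49423 with no filter. They were 1579 of 21380 without the 2 libraries that stood apart. Without DOX replicates 1, 2 and 3 they were 791, 140 and 91. Without replicates 1, 2 and 3 of the cells without DOX they were 203, 81 and 1839. The cause was not tested. Leaving out single libraries gave 38 to 52 calls in iETV2 (43 with all), 53 to 57 in DKO (57), 24 to 33 for the difference of responses (26), 33 to 41 between lines without DOX (35), 44 to 54 with DOX (49), and a difference of 1.83 to 3.33 members overlapped by H3K9me3 regions (2.67). Calls over all genes then ranged from 4577 to 6731 in iETV2 (5939 with all libraries), 13349 to 14513 in DKO (14153) and 2585 to 4112 for the difference (3679). Between lines they ranged from 8201 to 9738 without DOX (9763) and 7634 to 10029 with DOX (9587). With the 12 libraries of both lines 32 members passed in iETV2 cells, as did 4979 of 25516 genes. The replicate block, that is pairing libraries by number, called 53 members in iETV2, 3 in H188A and 57 in DKO. It called 26 for the difference, 35 without DOX and 49 with DOX. Among all genes the block called 8380 of 22025 in iETV2, 263 of 21086 in H188A and 13926 of 20426 in DKO. Of 25516 genes it called 3262 for the difference, 9311 without DOX and 8970 with DOX. Deviations of same-numbered libraries correlated at -0.017 to 0.308 in H188A and 0.014 to 0.033 in DKO, which does not settle whether the numbers pair the libraries. Calls kept in every alternative in which the member was tested were 29 of 43 in iETV2, 1 of 4 in H188A (Itga1) and 50 of 57 in DKO. They were 18 of 26 for the difference, 32 of 35 between lines without DOX and 40 of 49 with DOX. The 50 in DKO include Col6a5, Col9a1 and Lama2, which were not tested under the stricter filter. Lamb1 and Lamb2 did not pass between lines with DOX without H188A DOX replicate 1 (adjusted p = 0.405 and 0.253). Low counts limit the 12 members below 2 CPM.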
